A study of Mus musculus with 12 samples.

Results

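Fibrous and sheet-forming proteins of the extracellular matrix were examined in mouse brain through the genes of the collagen chains and the laminin chains. Genes were taken by name: every Col gene with a chain number and every Lama, Lamb or Lamc gene whose mean over all libraries was at least 0.2 CPM, a read count scaled to the size of the library. Of 21943 genes with a usable name, 55 fitted the name pattern and 54 reached the minimum, 43 collagens and 11 laminins. Col4a6, a collagen IV chain, was the 1 gene below it, with 0.0529 CPM, and Col10a1 at 0.23 CPM was the lowest above it. Of the 54 genes, 52 had enough counts to be tested, and Col6a6 and Col10a1 are described by their levels alone.

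The libraries came from brains of wild type C57BL/6 mice aged 6 weeks. One group was healthy controls and another had experimental cerebral malaria, abbreviated ECM throughout. The third had ECM and was given artesunate, an antimalarial drug derived from artemisinin, for 4 days (treated ECM). Each group had 4 libraries. The labels do not name the parasite, the day of infection or the treatment route, and do not say that each library came from its own animal, so p-values measure the spread between samples, which may be technical. In bulk tissue, fewer cells of a type and less RNA per cell cannot be told apart.

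Collagens are secreted proteins whose chains wind into triple helices. Fibrillar collagens form the fibers of connective tissue, which in brain lies mainly in the meninges and around larger vessels, and fibril-associated collagens bind the fibers' surface. Collagen IV instead forms the net of basement membranes, the thin sheets under endothelium and around pericytes, and its commonest trimer joins Col4a1 and Col4a2 chains. Laminins are cross-shaped trimers of 1 alpha, 1 beta and 1 gamma chain that polymerize into the other basement membrane net. In brain vessels, Lama4 and Lama5 are known as the endothelial alpha chains, and Lama1 and Lama2 as those of the meningeal and astrocyte side.

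Col4a1 and Col4a2 lie head to head on chromosome 8 of mm10 (GENCODE M21), Col4a1 on the minus strand from 11198423 to 11312826 and Col4a2 on the plus strand from 11312805 to 11449287. Their annotated first exons overlap by 22 bases, so reads there could belong to either. The stretch common to both promoter windows is shown because these were the 2 genes called in all 3 comparisons. It spans chr8:11312777-11312854 (RefSeq, GRCm38.p6, plus strand), and the capitals mark the overlap between the 2 start sites. The window of Col5a3, the other collagen called higher in ECM, is shown from chr9:20815066-20815317 (minus strand), ending 2 bases past its start so that all matches to the GC box are included, in capitals on either strand.
Col4a1 and Col4a2: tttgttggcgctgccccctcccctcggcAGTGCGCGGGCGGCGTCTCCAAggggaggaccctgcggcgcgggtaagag
Col5a3: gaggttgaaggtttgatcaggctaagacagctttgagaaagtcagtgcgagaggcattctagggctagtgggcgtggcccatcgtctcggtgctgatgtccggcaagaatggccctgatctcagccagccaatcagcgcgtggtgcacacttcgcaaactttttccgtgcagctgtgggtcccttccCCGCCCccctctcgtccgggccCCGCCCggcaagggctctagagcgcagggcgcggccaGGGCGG

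RefSeq promoter windows, 250 bases before to 50 after a start, were matched to 39 of the 54 genes (43 windows). The common stretch of Col4a1 and Col4a2 was 73.1% G or C. It held 1 match to the GC box (GGGCGG on either strand), inside the capitals, which was also the 1 match in the whole Col4a1 window. The Col4a2 and Col5a3 windows held 3 matches each, and all 3 windows held 1 CCAAT box (CCAAT). Over the 43 windows, the GC box was present in 58.1%, against 35.7% of the 32851 windows in the table, and CCAAT in 32.6% against 37.4%. The windows of these 3 genes held no match to the TATA box (TATAAA), to AP-1 (TGANTCA), to the GAS element of Stat factors (TTCNNNGAA) or to the interferon-stimulated response element (TTTC, any 2 bases, TTTC). Those letters were found in 13.6%, 7.81%, 8.3% and 3.44% of all windows, and in 11.6%, 2.33%, 6.98% and 0% of the windows of collagens and laminins. Some of the searched patterns can overlap, and a match is a run of letters, not a bound site.

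Library totals ran from 13342177 to 18886822 counts, and neurons, astrocytes, oligodendrocytes and microglia were all represented by their markers. Control 4, ECM 2 and ECM 3 stood apart. The rank correlation of a gene's deviation with its GC content was -0.667, -0.324 and -0.472 in them, against -0.0451 to 0.555 in the other 9 libraries, of which the 4 treated ones lay between 0.416 and 0.534. Markers of the cerebellum, a brain region, summed to 206 CPM in control 4, 94.6 in ECM 1 and 58.3 in ECM 3, and to between 272 and 4535 in the remaining libraries. Results are therefore also given without control 4, ECM 2 and ECM 3.

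The median GC content of these genes was 54.8%, against 49.8% over genes of at least 1 CPM. In control 4 the GC-richer 27 genes lay at a median log2 deviation of -1.25 from the other control libraries, and the GC-poorer 27 at 0.14. In ECM 3 these medians were -0.92 and 0.04, and in ECM 4 they were 0.88 and 0.13. ECM 2 went the other way from control 4 and ECM 3, with the GC-richer genes at -0.12 and the GC-poorer ones lower, at -0.54. Within the treated group all medians lay between -0.18 and 0.11. A deviation from the same group cannot show a GC shift that all its libraries share. The rank correlations with GC content given above were 0.416 to 0.534 in treated libraries. They were -0.667 to 0.326 in controls and -0.472 to 0.555 in ECM. The part of GC content in any single gene's difference was not tested beyond the corrected fit given with the results.

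**Figure D1:**
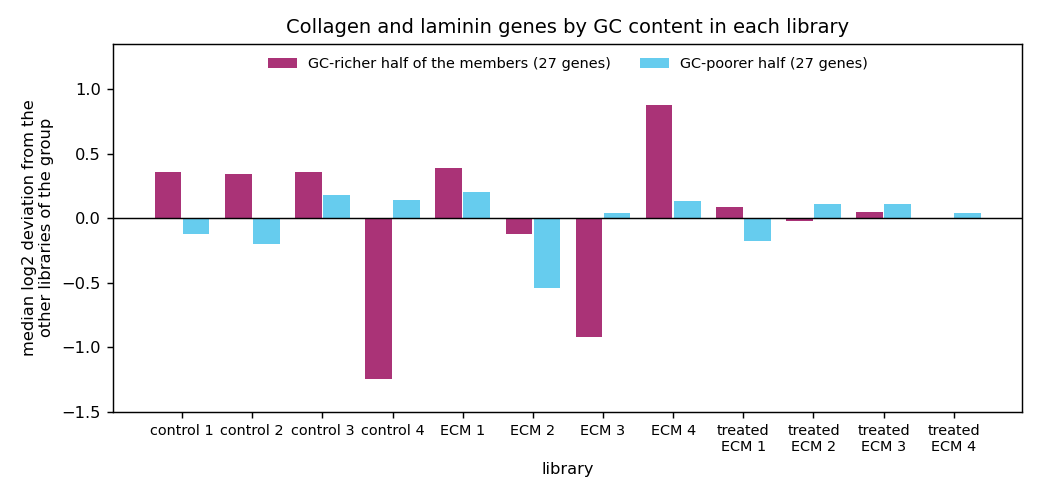
Median log2 deviation of the GC-richer and GC-poorer 27 collagen and laminin genes in each library (x axis) from the other libraries of its group (y axis). Control 4 at -1.25 and ECM 3 at -0.92 have low GC-richer genes and ECM 4 at 0.88 has high ones. The treated libraries lie near 0 relative to their own group, and a shift shared by a whole group does not show.

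Levels can be compared between genes only per length, here as CPM per kilobase of exon. In control brain the leading genes were Col6a1 (5.15 CPM per kilobase), a chain of the beaded filaments of collagen VI, and Col25a1 (5.09), a transmembrane collagen made by neurons. Lamc1 (4.87) and Lamb2 (3.98), the main laminin gamma and a vascular beta chain, followed, then Col4a2 (3.55). Col4a1 stood at 2.98 in controls. In ECM, Col4a1 (17.4) and Col4a2 (13.9) led all 54 genes per kilobase, above Col6a1 (7.47), and they still led in treated ECM at 7.70 and 7.28, above Col6a1 at 5.49. The genes of fibrous connective tissue were lower, with Col1a2 at 1.38, Col1a1 at 0.82 and Col3a1 at 0.415 CPM per kilobase in controls. The least abundant was Col6a6 at 0.0569.

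**Figure D2:**
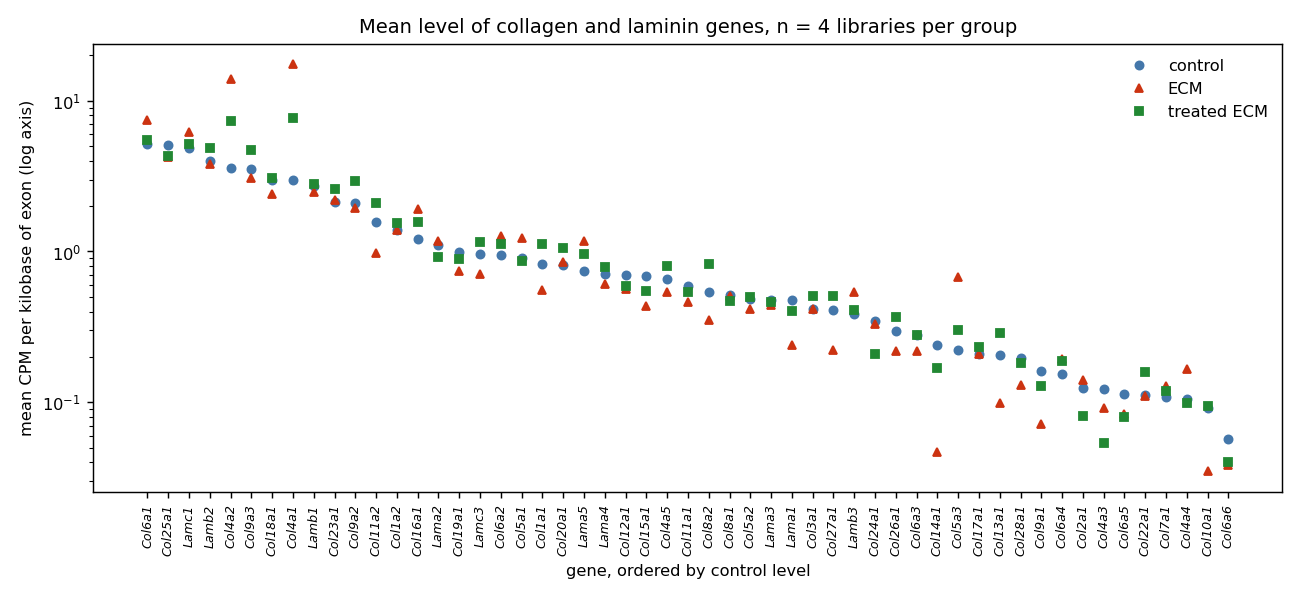
Mean level of 53 of the 54 genes in CPM per kilobase of exon (y axis, log scale), ordered by the control level (x axis), with 4 libraries per group. Col4a1 and Col4a2 are at 2.98 and 3.55 in controls and at 17.4 and 13.9 in ECM, and Col14a1 is lower in ECM than in either other group.

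The first comparison asked which collagen and laminin genes differed between ECM and healthy brain. Of the 52 tested, 3 rose (Col4a1, Col4a2 and Col5a3) and 2 fell (Col14a1 and Lama1), which is 9.62% and close to the 10.3% called among all 14599 genes tested (7.01% higher and 3.28% lower). The call needed a Benjamini-Hochberg adjusted p under 0.05, over all genes, in the quasi-likelihood test of edgeR. The median log2 fold change was -0.11, beside -0.02 over all genes, with 20 genes above 0 and 32 below. Groups did not overlap for 4 of the 52, Col4a1 and Col4a2 upward and Lama1 and Col14a1 downward, while this held for 14.3% of all genes (8.54% upward and 5.79% downward).

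Col4a1 had 24.8, 28.4, 22.6 and 13.1 CPM in control libraries 1 to 4, and 155, 124, 83.2 and 157 CPM in ECM libraries 1 to 4. In treated ECM it had 39.0, 66.2, 63.9 and 60.9 CPM. Its partner Col4a2 had 26.5, 26.0, 22.8 and 18.5 CPM in controls, 119, 66.5, 71.2 and 112 in ECM, then 32.1, 55.6, 52.1 and 53.1 in treated ECM. For both chains every ECM library was above every treated one, and every treated library was above every control, so that the 3 groups did not overlap. The lowest ECM value of Col4a1 was in ECM 3 and the lowest control value in control 4, and the lowest treated value of both genes was in treated library 1.

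Col4a1 was 5.84-fold higher in ECM than in controls (log2 2.55 ± 0.28 SE, edgeR adjusted p = 3.64e-05, n = 4 and 4). Col4a2 was 3.92-fold higher (log2 1.97 ± 0.24, edgeR adjusted p = 9.16e-05). Both calls held in all 12 fits that left out 1 library and in all 10 other alternatives. With control 4, ECM 2 and ECM 3 left out, the log2 differences were 2.63 ± 0.20 and 2.19 ± 0.20, and with a correction for GC content they were 2.57 ± 0.17 and 1.95 ± 0.23. The ratio of Col4a2 to Col4a1 reads was 0.918 to 1.41 in controls, 0.536 to 0.856 in ECM and 0.816 to 0.871 in treated ECM. The ECM and control ranges of this ratio did not overlap, and the control value of 1.41 was from control 4.

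Among the remaining collagen IV chains, Col4a4 had a higher mean in ECM, as Col4a1 and Col4a2 did, but was not called. Its means were 1.12, 1.77 and 1.06 CPM in control, ECM and treated ECM. Col4a3, Col4a4 and Col4a5, chains known best from the basement membranes of kidney, inner ear and lung, had log2 differences of -0.40 ± 0.41, 0.68 ± 0.40 and -0.30 ± 0.26 between ECM and controls, none of them called. Col4a3 and Col4a4 are also a head-to-head pair, with 71 bases between them on chromosome 1, and neither passed 2.67 CPM in any library. Col4a5 lay between 2.39 and 6.23 CPM over the 12 libraries.

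Markers of endothelium, the cell type that lines vessels and lays down much of their basement membrane, summed higher in ECM than in controls. In treated ECM their sums overlapped those of controls, while Col4a1 and Col4a2 stayed above every control. The 12 markers summed to 266 to 314 CPM in controls, 411 to 436 in ECM and 252 to 315 in treated ECM, and none was at 0. In ECM 5 of the 12 were called higher (Erg, Emcn, Pecam1, Cldn5 and Cdh5) and 2 lower (Slco1a4 and Tek). Both directions together are 58.3%, against 10.3% of all genes, so the markers did not all move the same way. In treated ECM against ECM 4 were lower, which is 33.3% against 8.35%. Mural cell markers, those of pericytes and smooth muscle, summed to 264 to 289, 220 to 323 and 267 to 279 CPM. Of 12 tested, 2 were called higher in ECM (Tagln and Kcnj8) and 0 lower, which is 16.7% against 10.3% of all genes. In treated against untreated ECM 1 was called lower (Kcnj8) and 0 higher, which is 8.33% against 8.35% of all genes. Per CPM of summed endothelial markers, Col4a1 stood at 0.0417 to 0.0964 in controls, 0.192 to 0.383 in ECM and 0.131 to 0.254 with treatment, and controls did not overlap the other groups. The same ratio for Col4a2 was 0.0589 to 0.0959, 0.152 to 0.289 and 0.108 to 0.207. A sum of marker CPM is not a count of cells, and the part of cell number in the rise was not tested.

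**Figure D3:**
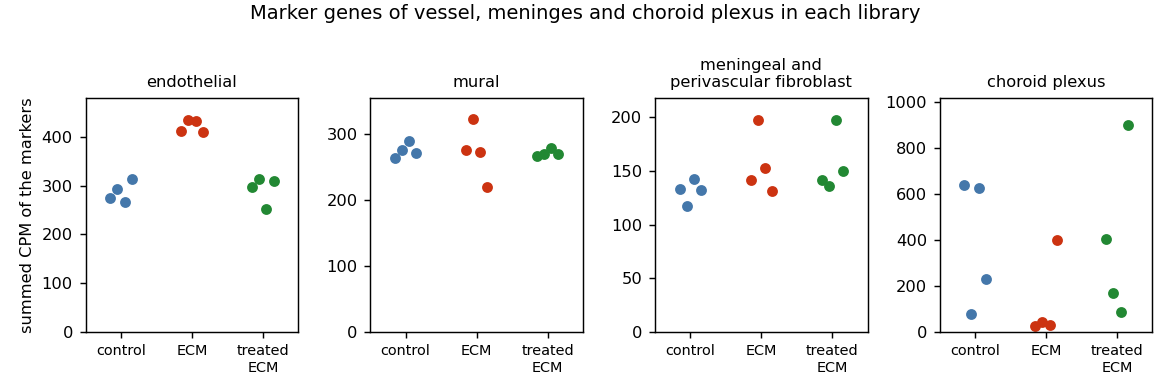
Summed CPM (y axis) of the marker genes of endothelium, mural cells, meningeal and perivascular fibroblasts and choroid plexus in each library, by group (x axis). Endothelial sums are 411 to 436 in ECM against at most 315 in the other groups, mural and fibroblast sums overlap, and choroid plexus sums vary from 27.1 to 899 across libraries.

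Col5a3 encodes a chain of collagen V, which sets the width of collagen fibers. It had 2.30, 1.32, 1.98 and 0.480 CPM in controls, 5.88, 3.42, 2.07 and 7.03 in ECM, then 2.97, 2.08, 1.59 and 1.52 in treated ECM. Control and ECM libraries overlapped, since ECM 3 was below control 1. The difference was 3.02-fold (log2 1.59 ± 0.47, edgeR adjusted p = 0.0454), and the call was kept without control 1, ECM 2 or ECM 3 and lost without any 1 of the other 9 libraries, with adjusted p up to 0.125. It was also lost with only the control and ECM libraries in the fit (log2 1.59 ± 0.51, edgeR adjusted p = 0.117) and with a score of choroid plexus markers added to the model as a covariate (1.98 ± 0.55, edgeR adjusted p = 0.0632). A block for the replicate number alone lost it too. The call held with the correction for GC content (1.64 ± 0.28, edgeR adjusted p = 0.00144) and without control 4, ECM 2 and ECM 3 (1.79 ± 0.33, edgeR adjusted p = 0.00442). Col5a1 and Col5a2, the other collagen V chains, had log2 differences of 0.44 ± 0.44 and -0.21 ± 0.26 and were not called.

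Col14a1, a fibril-associated collagen of the fiber surface, was the gene that fell furthest. It had 1.71, 1.26, 1.25 and 2.54 CPM in controls, 0.754, 0.155, 0.159 and 0.257 in ECM, then 0.901, 1.27, 1.40 and 1.21 in treated ECM. All ECM libraries were below all others, on few reads: 10, 2, 2 and 5 counts in ECM against 17 to 37 in controls and 17 to 22 in treated ECM. In ECM it was 5.03-fold lower than in controls (log2 -2.33 ± 0.47, edgeR adjusted p = 0.00568). The call held in all 12 omissions of 1 library, and without control 4, ECM 2 and ECM 3 the value was -1.55 ± 0.48 (edgeR adjusted p = 0.0481).

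Lama1, the laminin alpha chain of meningeal and astrocytic basement membrane, fell as well. Its levels were 5.34, 4.58, 4.47 and 3.97 CPM in controls, 1.73, 1.71, 2.79 and 3.03 in ECM, then 3.45, 4.16, 4.01 and 4.13 in treated ECM. Again every ECM library was below every library of the other groups. It was 1.97-fold lower in ECM than in controls (log2 -0.98 ± 0.24, edgeR adjusted p = 0.0200), and the call was lost without control 1 or without ECM 1 (largest adjusted p = 0.0646) and with only the control and ECM libraries in the fit (-0.98 ± 0.30, edgeR adjusted p = 0.0924). With control 4, ECM 2 and ECM 3 left out, it stayed at -0.99 ± 0.27 (edgeR adjusted p = 0.0281). A block for the replicate number alone left it at -1.01 ± 0.28 and not called (edgeR adjusted p = 0.0607).

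Markers of meningeal and perivascular fibroblasts, the brain cells that make fibrous collagens, were mixed beside these falls. The 14 markers summed to 117 to 143 CPM in controls, 131 to 198 in ECM and 136 to 198 in treated ECM, with none at 0 in a whole group. Of 13 tested, 3 were lower in ECM (Lum, Slc22a6 and Slc13a4) and 1 was higher (Aldh1a2), which is 30.8% against 10.3% of all genes. Choroid plexus markers ranged from 78.6 to 640 CPM in controls, 27.1 to 398 in ECM and 85.4 to 899 in treated ECM, with ECM 1 to 3 at 27.1, 44.1 and 27.5. With a choroid plexus score in the model, Col14a1 was still called (log2 -2.42 ± 0.61, edgeR adjusted p = 0.0377). Lama1 had a log2 difference of -0.90 ± 0.30 in that fit, close to the -0.98 without the score, with a larger SE, and was not called (edgeR adjusted p = 0.141). The part of fibroblasts in either fall was not tested.

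**Figure D4:**
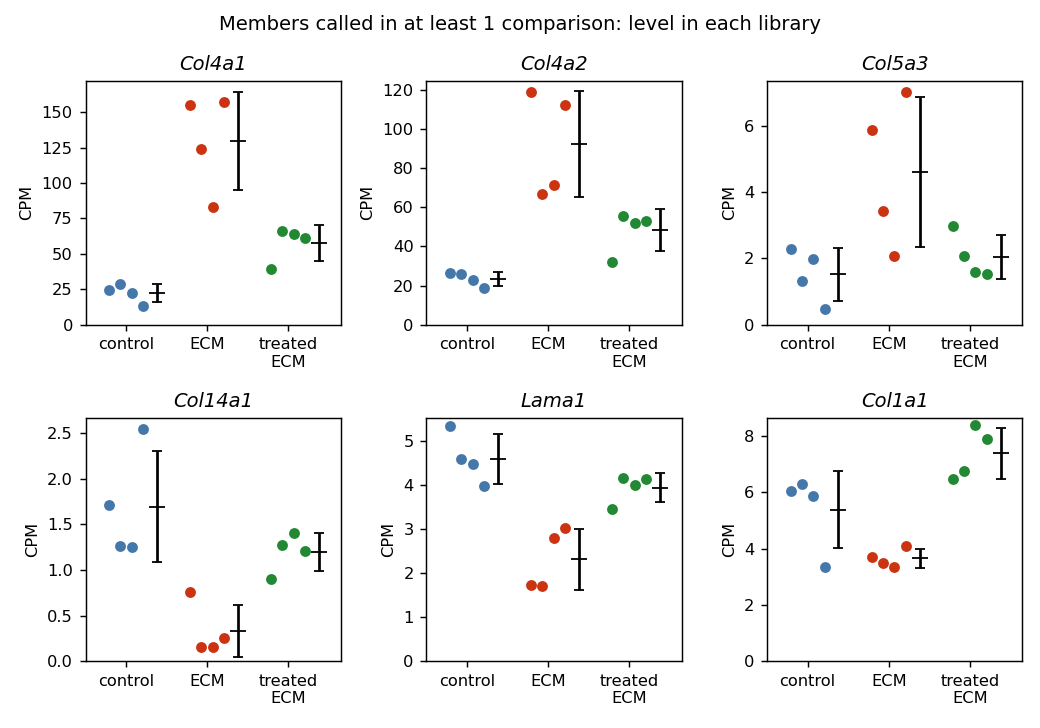
Level in CPM (y axis, from 0) of the 6 genes called in at least 1 comparison, in each library by group (x axis), with mean and SD over 4 libraries in black. Col4a1 and Col4a2 are separate in all 3 groups, and ECM libraries are the lowest for Col14a1 and Lama1.

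The other laminin chains were not called in ECM. Lamc1, the gamma chain of most laminins, had 36.9, 38.1, 41.4 and 44.8 CPM in controls and 53.2, 38.2, 65.0 and 49.5 in ECM (log2 0.35 ± 0.16, edgeR adjusted p = 0.224). Lama5 had 9.78, 9.67, 9.23 and 5.07 CPM in controls and 19.1, 4.66, 9.71 and 20.3 in ECM (log2 0.67 ± 0.37, edgeR adjusted p = 0.316). For these genes the groups overlapped through the libraries that stood apart. Without control 4, ECM 2 and ECM 3, Lamc1 was called at 0.40 ± 0.12 and Lama5 at 1.04 ± 0.12 (edgeR adjusted p = 0.0347 and 0.000352). With all libraries and the correction for GC content neither was called, at 0.35 ± 0.18 and 0.64 ± 0.25 (edgeR adjusted p = 0.231 and 0.109). Lama4, Lama2, Lamb1 and Lamb2 had log2 differences of -0.21 ± 0.21, 0.08 ± 0.16, -0.15 ± 0.15 and -0.05 ± 0.25.

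Lama2, the alpha chain of astrocyte endfeet, had 16.2, 16.6, 20.4 and 19.1 CPM in controls, 15.2, 20.3, 21.1 and 19.9 in ECM, then 15.7, 14.2, 15.8 and 14.1 in treated ECM. Lama4, an endothelial chain, had 6.47, 7.53, 9.59 and 10.4 CPM in controls, 8.90, 5.67, 7.40 and 7.39 in ECM, then 9.28, 8.65, 11.1 and 9.15 in treated ECM. The treated values of Lama2 were all below the controls, and those of Lama4 overlapped them. Lamb1 had 23.6, 28.3, 30.1 and 26.4 CPM in controls, 20.6, 23.8, 28.5 and 25.0 in ECM, then 25.4, 29.0, 31.5 and 25.9 in treated ECM. Lamb2, the beta chain of mature vessels and synapses, had 25.8, 26.1, 27.5 and 17.4 CPM in controls, 26.4, 14, 18.5 and 34.4 in ECM, then 31.1, 26.2, 30.4 and 31.2 in treated ECM. The lowest Lamb2 values were those of control 4, ECM 2 and ECM 3. Lamb3, Lamc3 and Lama3, chains of epithelial and less common laminins, lay between 1.03 and 8.52 CPM in every library, with none called.

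The fibrous collagens I and III, which make up most of the body's collagen fibers, were not called in ECM. Col1a1 had 6.04, 6.28, 5.86 and 3.36 CPM in controls, 3.70, 3.49, 3.34 and 4.11 in ECM, then 6.47, 6.77, 8.39 and 7.88 in treated ECM. The control and ECM groups overlapped through control 4 alone, and the difference was -0.55 ± 0.23 (edgeR adjusted p = 0.158). With control 4, ECM 2 and ECM 3 left out, it was called lower at -0.63 ± 0.19 (edgeR adjusted p = 0.0454). Col1a2, the second chain of collagen I, had 17.7, 20.5, 17.5 and 12.7 CPM in controls, 13.0, 28.8, 10.8 and 16.6 in ECM, then 19.6, 17.0, 22.2 and 17.6 in treated ECM. Its log2 difference in ECM was 0.02 ± 0.27, with ECM 2 above all other libraries. Col3a1 had 3.85, 5.96, 4.10 and 2.40 CPM in controls, 5.73, 5.74, 3.02 and 1.74 in ECM, then 3.23, 6.37, 5.85 and 4.57 in treated ECM, with overlapping groups and a difference of -0.02 ± 0.39.

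Several GC-rich collagens differed from controls by another amount without those 3 libraries. In that fit 8 genes were called higher in ECM: Col4a1, Col4a2, Col5a3, Lama5, Lamc1, Col16a1 (log2 1.14 ± 0.15), Col6a1 (1.01 ± 0.23) and Col6a2 (0.86 ± 0.25). Col16a1, a fibril-associated collagen, had 9.67, 10.7, 9.15 and 3.02 CPM in controls and 22.3, 5.36, 2.47 and 21.1 in ECM. ECM 1 and ECM 4 were above all controls and ECM 2 and ECM 3 below controls 1 to 3, and with all libraries its difference was 0.66 ± 0.56. Col6a1 had 17.4, 16.8, 25.9 and 30.3 CPM in controls and 38, 30.2, 20.4 and 42.2 in ECM, with overlapping groups (0.54 ± 0.26 with all libraries). The 3 genes called lower without those libraries were Col14a1, Lama1 and Col1a1. This fit rests on 3 control and 2 ECM libraries. The share of all genes called in it is not given here. Its count of 8 therefore cannot be read as particular to collagens and laminins. With all libraries and the correction for GC content, Lama5, Lamc1, Col16a1, Col6a1 and Col6a2 were not called higher.

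**Figure D5:**
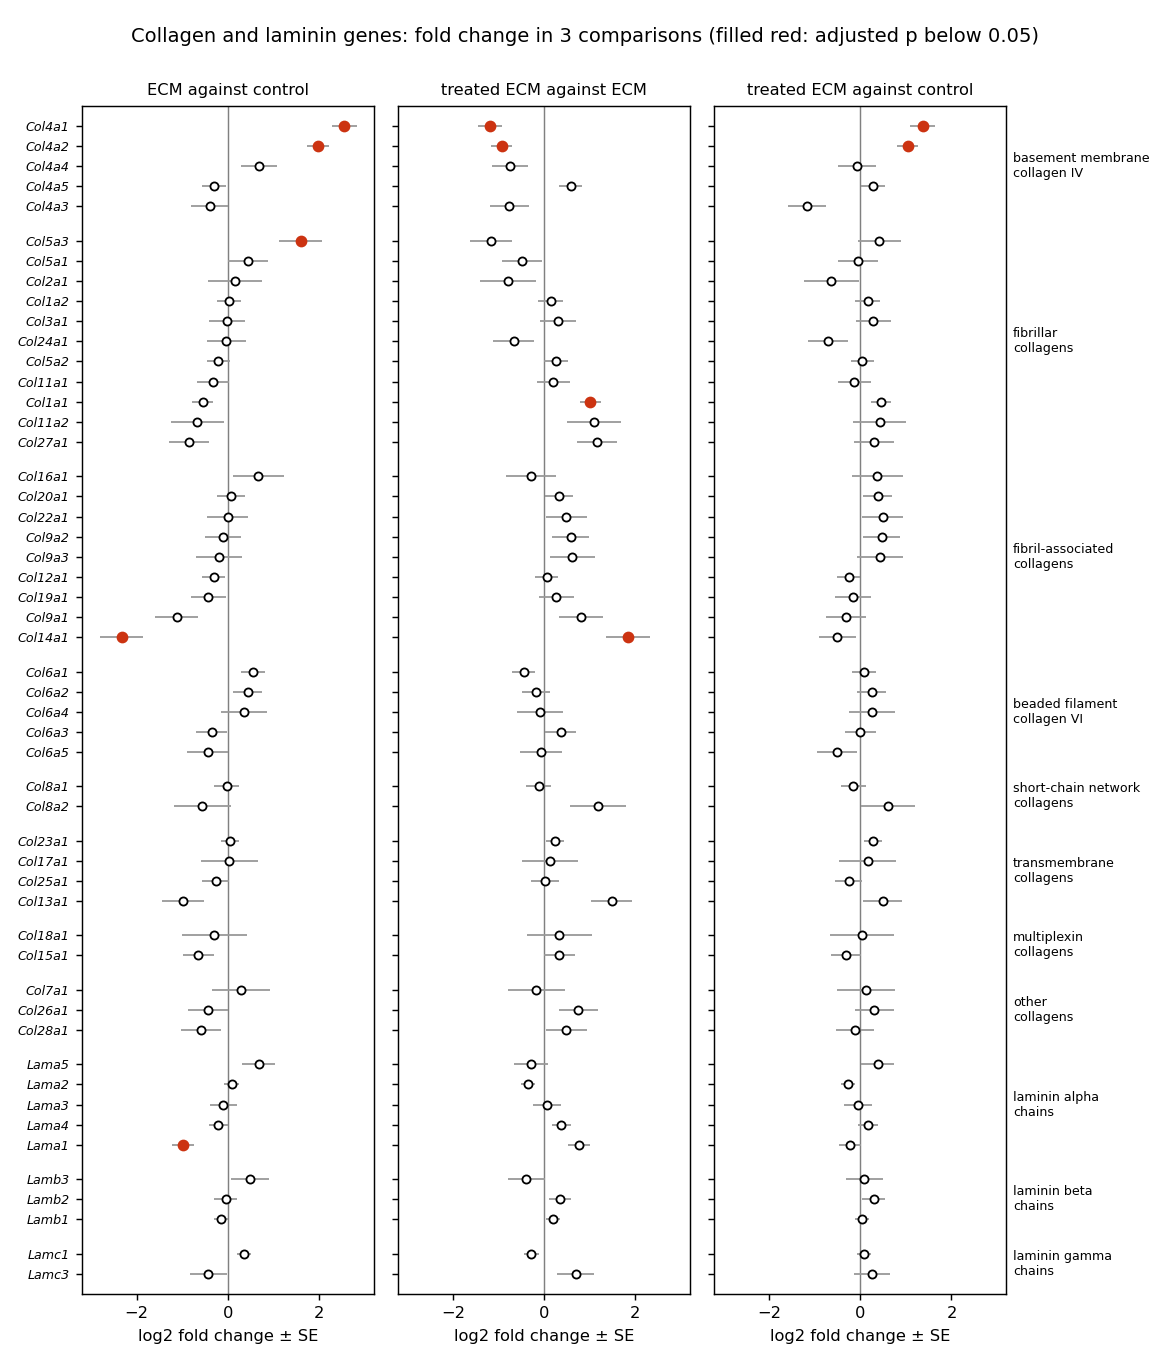
Log2 fold change ± SE (x axis) of 51 of the 52 tested genes (y axis, grouped by role) in the 3 comparisons named above the panels, with 4 libraries per group. Filled red points have an adjusted p below 0.05: 5, 4 and 2 genes, with Col4a1 and Col4a2 in every panel.

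The second comparison asked what differed between treated and untreated ECM brain. It shares the ECM libraries with the first, so opposite signs in the 2 comparisons are not independent. Of the 52 genes, 2 rose (Col14a1 and Col1a1) and 2 fell (Col4a1 and Col4a2), which is 7.69%, against 8.35% of all genes tested (3.31% higher and 5.04% lower). The median log2 fold change was 0.19, beside 0.01 over all genes. Col4a1 fell 2.26-fold (log2 -1.18 ± 0.26, edgeR adjusted p = 0.0160) and Col4a2 1.91-fold (-0.93 ± 0.23, edgeR adjusted p = 0.0269). The call of Col4a1 was lost without treated library 1, its lowest treated library (log2 -1.03, adjusted p = 0.0553), and that of Col4a2 without ECM 1 or any 1 treated library, with adjusted p up to 0.0792. Without control 4, ECM 2 and ECM 3 the values were -1.45 ± 0.18 and -1.26 ± 0.18. With the choroid plexus score in the model the differences were of similar size, -1.11 ± 0.31 and -0.91 ± 0.28, and neither was called (edgeR adjusted p = 0.105 and 0.137). A block for the replicate number alone also left neither called.

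Col14a1 was 3.56-fold higher in treated than in untreated ECM (log2 1.83 ± 0.48, edgeR adjusted p = 0.0341), a call lost without control 1, without ECM 2, 3 or 4 and without any 1 treated library (adjusted p up to 0.0899). With control 4, ECM 2 and ECM 3 left out it was not called either, at 1.30, nor with only the treated and untreated ECM libraries in the fit (1.83 ± 0.50, edgeR adjusted p = 0.0513) or with the choroid plexus score (1.91 ± 0.58, edgeR adjusted p = 0.132). Col1a1 was 2.01-fold higher (1.01 ± 0.23, edgeR adjusted p = 0.0168). Its call was lost without treated library 3 or 4 (adjusted p up to 0.058). It was also lost with the correction for GC content, where the log2 value was 0.58 ± 0.20 (edgeR adjusted p = 0.0656), and with the choroid plexus score, at 1.03 ± 0.28 (edgeR adjusted p = 0.0866). With control 4, ECM 2 and ECM 3 left out, it was 0.91 ± 0.19 (edgeR adjusted p = 0.0104). Neither Col14a1 nor Col1a1 was called with a block for the replicate number alone. The ratio of Col1a2 to Col1a1 reads was 2.94 to 3.78 in controls, 3.24 to 8.24 in ECM and 2.23 to 3.03 in treated ECM, the 8.24 being ECM 2.

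Treated and untreated ECM libraries did not overlap for 7 of the 52 genes, against 22% of all genes. Upward these were Col1a1, Col14a1, Lama1, Col13a1 and Col4a5, and downward Col4a1 and Col4a2. Lama1 (0.76 ± 0.24, edgeR adjusted p = 0.0726) and Col13a1, a transmembrane collagen of adhesion sites (1.48 ± 0.45, edgeR adjusted p = 0.0595), were not called by edgeR, while DESeq2 called both. Col13a1 had 0.377, 0.543, 0.0796 and 0.821 CPM in ECM, then 1.59, 1.41, 1.21 and 1.14 in treated ECM. No laminin gene was called by edgeR in this comparison. At an unadjusted p below 0.05 there was 1 higher (Lama1) and 1 lower (Lama2), and DESeq2 called 1 higher and 0 lower. The value of Lama2 was -0.35 ± 0.16 (edgeR adjusted p = 0.17).

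Col5a3 was 2.25-fold lower in treated than in untreated ECM, at log2 -1.17 ± 0.46, and was not called (edgeR adjusted p = 0.126). With the correction for GC content it was called at -1.61 ± 0.28 (edgeR adjusted p = 0.0026), and without control 4, ECM 2 and ECM 3 at -1.66 ± 0.30. That last fit called 8 genes lower: Col4a1, Col4a2, Col5a3, Lama5 (-0.84 ± 0.12), Col16a1 (-1.05 ± 0.14), Col5a1 (-1.01 ± 0.22), Col24a1 (-1.14 ± 0.30) and Col6a1 (-0.75 ± 0.22). These values set the 4 treated libraries against ECM 1 and ECM 4 alone, and the share of all genes called in that fit is not given here. Col1a1 was the 1 gene it called higher. With all libraries and the correction for GC content, Lama5, Col16a1, Col5a1, Col24a1 and Col6a1 were not called lower.

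The third comparison asked where treated ECM brain still differed from control. Of the 52 genes 2 were called higher, Col4a1 and Col4a2, which is 3.85% against 2.05% of all genes tested (1.99% higher). Col4a1 was 2.58-fold above controls (log2 1.37 ± 0.27, edgeR adjusted p = 0.0123) and Col4a2 2.05-fold (1.04 ± 0.23, edgeR adjusted p = 0.0345). The call of Col4a1 held in all 12 omissions of 1 library, and that of Col4a2 was lost without any 1 control and without treated library 2, 3 or 4 (adjusted p up to 0.125). With a block for the replicate number alone neither was called (edgeR adjusted p = 0.0538 for Col4a1). With the correction for GC content Col4a1 was 1.07 ± 0.16 (edgeR adjusted p = 0.00199), while Col4a2 was 0.53 ± 0.23 and not called. With the choroid plexus score Col4a2 was 1.04 ± 0.25 and not called (edgeR adjusted p = 0.0589). Without control 4, ECM 2 and ECM 3 both were called, at 1.18 ± 0.17 and 0.93 ± 0.17.

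No collagen or laminin gene was called lower in treated ECM than in controls by edgeR or by DESeq2, beside 0.0548% of all genes by edgeR, and 1 was at an unadjusted p below 0.05 (Col4a3). Col4a3 had 1.12, 0.816, 1.68 and 1.23 CPM in controls, 0.679, 1.71, 0.398 and 0.872 in ECM, then 0.530, 0.536, 0.509 and 0.572 in treated ECM. Its treated libraries were all below its controls (log2 -1.16 ± 0.42, edgeR adjusted p = 0.309). Groups did not overlap for 7 of the 52 genes, against 19.1% of all genes, Col4a1, Col4a2, Lama5, Col1a1 and Col13a1 upward and Col4a3 and Lama2 downward. Col5a3, Col14a1, Lama1 and Col1a1 had log2 differences of 0.42 ± 0.47, -0.50 ± 0.41, -0.22 ± 0.24 and 0.45 ± 0.22 from controls, none called. Missing the threshold does not show that their levels were those of controls.

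Some of the most abundant collagens varied more between libraries of a group than between groups. Col18a1, the source of the fragment endostatin, had 25.0, 26.6, 30.0 and 2.19 CPM in controls, 7.62, 29.7, 3.58 and 27.1 in ECM, then 29.9, 24.5, 8.46 and 23.1 in treated ECM. Its low libraries were control 4, ECM 1, ECM 3 and treated library 3, the 4 with the lowest sums of cerebellum markers (206, 94.6, 58.3 and 272 CPM). Whether tissue sampling set the Col18a1 level was not tested. Col25a1 had 51.6, 58.6, 54.0 and 99.4 CPM in controls, 69.1, 33.7, 70.5 and 44.6 in ECM, then 36.9, 60.7, 78.4 and 45.1 in treated ECM, with overlapping groups and a difference of -0.27 ± 0.30 in ECM. With a cerebellum score in the model Col25a1 was called lower in ECM (-0.52 ± 0.15, edgeR adjusted p = 0.0278).

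By role, the count of called genes in ECM against control was 2 of 5 tested for collagen IV, 1 of 11 for fibrillar collagens, 1 of 9 for fibril-associated collagens and 1 of 5 for laminin alpha chains. These shares were 40%, 9.09%, 11.1% and 20%, on few genes each, against 10.3% of all genes tested. It was 0 of 5 for collagen VI, 0 of 4 for transmembrane collagens, 0 of 3 each for laminin beta and gamma chains, 0 of 2 each for short-chain network collagens and multiplexins and 0 of 3 for Col7a1, Col26a1 and Col28a1. None of the genes in these roles without a call had an unadjusted p below 0.05 or a call by DESeq2 (0 and 0). Median log2 differences were 0.68 for collagen IV, -0.04 for fibrillar, -0.20 for fibril-associated and 0.35 for collagen VI genes. For laminin alpha, beta and gamma chains they were -0.10, -0.05 and 0.35.

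Genes that act on or with collagens and laminins were read from lists of the same pathways. Of 26 tested genes for collagen folding, crosslinking and processing, 1 rose in ECM and 1 fell, with a median log2 difference of 0.06. This is 7.69%, against 10.3% of all genes tested. Lox, the lysyl oxidase that crosslinks collagen, went from 1.10 ± 0.451 CPM (SD, n = 4) in controls to 4.18 ± 2.23 in ECM and was 0.999 ± 0.424 in treated ECM. It was higher in ECM (log2 1.91 ± 0.44, edgeR adjusted p = 0.0126) and lower with treatment (-2.06 ± 0.44, edgeR adjusted p = 0.0133). The rise was log2 1.03 ± 0.41 and not called without control 4, ECM 2 and ECM 3 (edgeR adjusted p = 0.111), and the fall was lost without treated library 2 (adjusted p = 0.0511). Tll1, a procollagen-trimming protease, fell in ECM (-1.22 ± 0.36, edgeR adjusted p = 0.0461), a call lost in 10 of 12 omissions of 1 library, all but treated libraries 1 and 3, and in the fit without the 3 libraries. Serpinh1, the collagen chaperone, had 16.0 ± 4.70, 19.1 ± 3.57 and 34.7 ± 8.49 CPM in control, ECM and treated ECM. Treated library 4 was left out of its mean and its fit, which leaves 3 treated libraries, and its difference from controls in treated ECM was 1.12 ± 0.27 (edgeR adjusted p = 0.0557).

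Of 13 basement membrane partners, 3 rose in ECM and 0 fell, which is 23.1% against 10.3% of all genes, with a median of 0.13. Tinagl1, a matrix protein of vessel walls, rose from 6.81 ± 0.745 CPM in controls to 25.0 ± 6.90 in ECM (log2 1.88 ± 0.23, edgeR adjusted p = 8.88e-05). It was also called higher in treated ECM than in controls (1.17 ± 0.22, edgeR adjusted p = 0.0108), the 1 partner called there, a call lost without control 3 (adjusted p = 0.0509). Nid2, which links collagen IV to laminin, and Sparc, a collagen IV binding protein, rose by log2 0.91 ± 0.24 and 0.81 ± 0.22 (edgeR adjusted p = 0.025 and 0.0336). The call of Nid2 was lost without control 3 or ECM 1, and that of Sparc without control 1, 3 or 4, ECM 1, 2 or 4 or treated library 2 (adjusted p up to 0.0833 and 0.109). Nid1, Hspg2 and Agrn, the linker nidogen-1 and the proteoglycans perlecan and agrin, had 0.07 ± 0.23, 0.75 ± 0.35 and -0.12 ± 0.33. None of the 13 was called lower, with 0 also at an unadjusted p below 0.05 and 0 by DESeq2. In treated against untreated ECM 0 of the 13 were called by edgeR, with 1 higher and 3 lower at an unadjusted p below 0.05 and 2 called lower by DESeq2.

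Among 9 small proteoglycans that bind collagen fibers, Lum and Ogn fell in ECM, by log2 -1.52 ± 0.31 and -1.26 ± 0.35 (edgeR adjusted p = 0.00537 and 0.0358), with a list median of -0.23. These 2 calls are 22.2% of the list, against 10.3% of all genes. The call of Ogn was lost without control 2, 3 or 4, ECM 1 or 4 or treated library 2 or 4 (adjusted p up to 0.105). Of 14 receptors (median 0.09), 0 were called in ECM by edgeR, with 3 higher at an unadjusted p below 0.05 (Itga2, Itga6 and Lair1) and 2 called higher by DESeq2. Lair1, an inhibitory collagen receptor of leukocytes, fell in treated against untreated ECM (-0.86 ± 0.22, edgeR adjusted p = 0.0312), a call lost without ECM 1, 2 or 3 or any 1 treated library (adjusted p up to 0.0886). Of 10 genes of TGF-beta ligands, receptors and binding proteins, a pathway known to induce collagen genes (median 0.02), Tgfb1 (1.23 ± 0.23) and Tgfbr2 (0.70 ± 0.15) rose in ECM and Tgfb3 (-0.71 ± 0.17) fell, with edgeR adjusted p = 0.00279, 0.00822 and 0.0163. Calls made up 30% of this list, against 10.3% of all genes. The fall of Tgfb3 was lost without ECM 1 (adjusted p = 0.0551). Tgfb3 was higher in treated than in untreated ECM (0.85 ± 0.17, edgeR adjusted p = 0.00985).

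The authors' deposited tables, which list genes past an absolute log2 fold change of 1 at an unadjusted p below 0.05, hold 4 of these genes for ECM against control. They give 2.56 for Col4a1, 1.98 for Col4a2, 1.61 for Col5a3 and -2.35 for Col14a1. For treated against untreated ECM the authors' deposited tables list 7. These are Col4a1 (-1.19), Col14a1 (1.84), Col5a3 (-1.19), Col13a1 (1.49), Col11a2 (1.09), Col27a1 (1.15) and Col8a2 (1.18). Of them, edgeR called Col4a1 and Col14a1 alone. The edgeR adjusted p was 0.126 for Col5a3, 0.0595 for Col13a1, 0.258 for Col11a2, 0.116 for Col27a1 and 0.24 for Col8a2. The authors' deposited tables give adjusted p-values of 0.0337, 0.0509, 0.0751, 0.0439 and 0.178 in the same order. Among these uncalled genes, Col5a3 and Col27a1 were below 0.05 there. For treated ECM against control they list 3, Col4a1 (1.37), Col4a2 (1.03) and Col4a3 (-1.18).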

How the data were processed

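RNA from brains in RNAlater was sequenced from NEBNext Ultra libraries, per the labels' protocols. The submitters' processing notes name Trimmomatic, FastQC, STAR, HTSeq and build mm10, without versions. The deposited table holds whole read counts of 21983 genes made by the authors. Of these, 2212 with names of 8 or more characters ran over 2 cells and were joined again, leaving treated library 4 out, whose values there differed from the authors' deposited comparison tables in 98 of 107 genes. None of the 54 genes was among them. 40 names were unusable, 26 of them dates. The authors' deposited tables of 3 comparisons also hold a log2 fold change, p-values, a normalized signal and FPKM, per the file headers. Their log2 fold changes and p-values were read, and their read counts were compared with the count table, while signal and FPKM were not used.

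After a filterByExpr filter and TMM scaling, counts were fitted over 12 libraries in edgeR 4.0.16 (R 4.3.3, limma 3.58.1), with 1 mean per group and 3 contrasts. P-values were adjusted over 14599 genes by Benjamini-Hochberg. SE is the log2 fold change divided by the square root of F. Depth of 13342177 to 18886822 counts limits precision for genes of few reads. Alternatives were DESeq2 1.42.0, its size factors, no filter, 2 groups only, a replicate block, a GC correction, choroid plexus or cerebellum scores, and omissions of libraries. The fit was tested on simulated counts. Lists, libraries set apart and members were chosen with earlier results of these data known. Named with values in every library are genes called in any comparison and a panel of collagen I, III, IV and XIV and laminin chains, and others that single libraries decide were chosen after their values were seen. GENCODE M21 gave coordinates, exon length and GC content by symbol, and RefSeq (GRCm38.p6) the promoters. Counted among the 54 genes is 1 that is not reported here by itself or drawn. The library kit is not described as stranded in the labels, so antisense reads were not separated. Tables and figures used pandas 2.3.3, matplotlib 3.10.9, numpy 2.4.6 and Python 3.11.15.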

Additional observations from a re-analysis of the deposited data

Results flagged for a closer look

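In 8 of 156 sets of 4 libraries checked (52 genes in 3 groups), 1 library lay far from the other 3 (a gap above Dixon's critical value), and chance alone would set apart about 1 in 20. Control 4 was the library concerned in 4 of them: Lama5 at 5.07 CPM against 9.23 to 9.78, Lamb2 at 17.4 against 25.8 to 27.5, Col1a1 at 3.36 against 5.86 to 6.28, and Col25a1 at 99.4 against 51.6 to 58.6. Control 3 had Col4a4 at 1.98 CPM, with the other controls between 0.802 and 0.891. ECM 1 had Col14a1 at 0.754 CPM, with the other ECM libraries between 0.155 and 0.257. Treated library 1 had Col4a2 at 32.1 CPM against 52.1 to 55.6, and treated library 2 had Lamb2 at 26.2 against 30.4 to 31.2.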

How the results depend on the processing

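Of 924 refitted fold changes (14 genes, 3 comparisons, 22 alternatives), 816 kept direction and side of the threshold, 57 lost the call, 13 gained one and 38, all uncalled, changed sign. Only results called in the main fit could lose a call. These were Col4a1 and Col4a2 in all 3 comparisons, Col14a1 in the first and second, Col5a3 and Lama1 in the first and Col1a1 in the second. The 57 losses all fall on them, while the 816 include uncalled results that stayed uncalled. The same 54 genes were found with CPM without TMM factors. Leaving out 1 library gave 2 to 5 genes higher and 1 to 3 lower in ECM against control, 0 to 4 higher and 0 to 2 lower in treated against untreated ECM, and 1 to 2 higher in treated ECM against control. Without control 4, ECM 2 and ECM 3 the first comparison had 8 higher, and the second 1 higher and 8 lower. Shares of all genes called in the refits are not given beside these counts. With only the 2 groups compared, 2 were higher and 1 lower in the first and 1 higher in the second. DESeq2 gave 4 higher in the second. GC correction gave 1 higher and 3 lower in the second and 1 higher in the third comparison. With the choroid plexus score the first had 2 higher and 1 lower, the second 0 higher and 0 lower, and the third 1 higher. The causes were not tested.

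Deviations from the group mean were correlated between libraries of different groups. Correlations of same-numbered libraries ran from -0.619 to 0.328, and 2 of 12 libraries correlated best with their own number. Control 4 and ECM 3, which stood apart, correlated at 0.694, and such differences between libraries could hide a pairing. The labels do not say whether replicate numbers pair samples. The replicate block gave 2 genes higher and 1 lower in the first comparison, 0 higher and 0 lower in the second and 0 higher in the third. GC correction with replicate block gave 1 higher in both of the latter, and 3 lower in the second (Col4a1, Col4a2 and Col5a3). Shares of all genes called in these fits are not given here, so the counts cannot be read as particular to collagens and laminins.

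Signs changed in ECM against control for Lama2 (-0.01) and Lama4 (0.05) without control 4, ECM 2 and ECM 3. Lamb2 turned to 0.10 with the choroid plexus score, 0.02 with the cerebellum score, 0.21 without those 3 libraries, and 0.01, 0.14 and 0.06 without control 3, ECM 2 and ECM 3 in turn (-0.30 to 0.14 over all omissions). Col3a1 turned to 0.01 with DESeq2 or its size factors, 0.04 with GC correction, 0.06 with the cerebellum score, and 0.23, 0.11 and 0.24 without control 2, ECM 3 and ECM 4 (-0.22 to 0.24 over all omissions). Col1a2 turned to -0.02 with the replicate block, alone or with GC correction, -0.05 with the choroid plexus score, -0.32 without the 3 libraries, and -0.09 and -0.33 without control 4 and ECM 2 (-0.33 to 0.20 over all omissions). In treated against untreated ECM, Lamb2 turned to -0.01 with GC correction and -0.04 without the 3 libraries, and Col1a2 to -0.15 with GC correction, -0.05 with the block added and -0.03 without ECM 3 (-0.03 to 0.49 over all omissions). In treated ECM against control, GC correction turned Lama5 to -0.02, Lamb2 to -0.10, Lamb1 to -0.08, Lamc1 to -0.09 and Col1a2 to -0.09. With the replicate block added these were -0.02, -0.09, -0.08, -0.08 and -0.07. Lamb1 was -0.02 without control 1 and without treated library 3. Genes of few counts, such as Col14a1, were limited by depth.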
